A study of Homo sapiens with 36 samples.

Results

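Transcripts of LFNG, which encodes the glycosyltransferase lunatic fringe, and of 7 core genes of the Notch pathway were followed across 36 arrays of the human monocytic leukaemia line THP-1. The members were NOTCH1 and NOTCH2 (receptors), JAG1 (a ligand), RBPJ (the DNA-binding partner of the cleaved receptor) and HES1, HES4 and HEY1 (target genes). They were taken by symbol from the platform's probe annotation, and each gene was read on its brightest probe among those with a detection p under 0.05 on at least 3 arrays. All 8 genes passed that filter, and they made up 8 of the 13582 genes tested. The dimmest genes inside the filter were JAG1 and HEY1, detected on 7 and 11 arrays, and the probe nearest outside it was a further NOTCH2 probe detected on 1 array. LFNG had been selected on its difference between SB+LPS and LPS at 4 h. Its values in every comparison that holds either group are therefore given as a description, with no test.

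Cells were cultured as 1 line and, where labelled SB, pretreated for 15 min with 10 µM SB203580, an inhibitor of the stress-activated kinase p38. They were then exposed to 1 nM gp120, the envelope protein of the SF162 strain of HIV, to 1 µg/ml LPS, a bacterial cell-wall component that activates Toll-like receptor signalling, or to neither. Combining no stimulus (control), gp120 or LPS with or without SB made 6 treatments, and each was sampled at 4 h and at 24 h with 3 biological replicates, which gave 12 groups. The vehicles were 0.1% DMSO for the inhibitor and 0.001% BSA for gp120. The labels do not say which other groups also received a vehicle. The comparisons address which transcriptional responses to gp120 and LPS depend on p38.

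In Notch signalling a ligand on one cell binds a receptor on its neighbour, and proteases then release the receptor's intracellular part, which enters the nucleus and joins RBPJ and a Mastermind coactivator at target genes such as HES1. Fringe enzymes add N-acetylglucosamine to O-fucose on the receptor's extracellular repeats, which changes how it responds to Delta and Jagged ligands. In monocytes and macrophages the pathway is known to intersect with Toll-like receptor signalling.

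Promoter sequence is shown for both target genes that were called at 24 h and for LFNG, because the textbook RBPJ recognition core can be read in them. Each window runs from 250 bases before to 50 bases after an annotated start and was taken from RefSeq (GRCh38.p14), with matches to TGGGAA on either strand in capitals. The HES1 window was chr3:194135898-194136197 on the plus strand, the HES4 window chr1:1000048-1000347 on the minus strand, and the LFNG window chr7:2512279-2512578 on the plus strand.
HES1: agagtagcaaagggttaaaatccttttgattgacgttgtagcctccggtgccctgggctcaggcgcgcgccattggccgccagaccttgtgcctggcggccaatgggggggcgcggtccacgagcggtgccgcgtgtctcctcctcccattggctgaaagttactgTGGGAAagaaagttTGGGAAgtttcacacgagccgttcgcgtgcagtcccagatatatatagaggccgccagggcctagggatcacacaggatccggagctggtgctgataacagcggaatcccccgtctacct
HES4: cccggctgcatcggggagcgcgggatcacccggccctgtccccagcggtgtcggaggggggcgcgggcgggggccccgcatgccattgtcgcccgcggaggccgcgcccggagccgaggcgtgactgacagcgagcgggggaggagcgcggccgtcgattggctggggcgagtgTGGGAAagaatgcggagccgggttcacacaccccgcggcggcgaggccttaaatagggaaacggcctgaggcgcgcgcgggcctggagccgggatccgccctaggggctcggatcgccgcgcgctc
LFNG: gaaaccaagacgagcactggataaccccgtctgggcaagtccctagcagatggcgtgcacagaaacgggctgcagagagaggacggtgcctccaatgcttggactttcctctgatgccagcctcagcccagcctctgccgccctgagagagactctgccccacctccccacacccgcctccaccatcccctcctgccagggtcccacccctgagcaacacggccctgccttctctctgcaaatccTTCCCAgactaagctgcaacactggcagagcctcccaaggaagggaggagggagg
HES1 held 2 matches, from -84 to -79 and from -70 to -65 relative to the start, and HES4 held 1, from -76 to -71. The LFNG match, TTCCCA as printed, lay on the opposite strand, and a further LFNG window at chr7:2517613-2517912 held 1 on the same strand. A window of the RBPJ gene, at chr4:26319496-26319795, held 2 matches as well, from -115 to -110 and from -72 to -67. The windows of NOTCH1, NOTCH2 and JAG1 held none, and the table gave windows for 7 of the 8 genes, 12 in all. Of all 35116 promoter windows in the table, 24% held TGGGAA. The AP-1 motif TGANTCA, searched the same way and overlapping no TGGGAA match here, occurred in 7.71% of all windows and in 1 RBPJ window alone among the 12. These matches describe letters and are not evidence of binding.

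Arrays had mean raw signals between 403 and 1570 and detected between 34.8% and 44.4% of their 47222 probes. Replicates correlated at 0.964 to 0.993, and each value of a member rested on 10 to 41 beads. Arrays of LPS at 4 h replicate 1 (mean signal 457) and SB+LPS at 4 h replicate 1 (mean signal 403) were the dimmest, so named results that use them are also given without both. Each of 3 slides held 4 whole groups. The first held control, gp120, LPS and SB at 24 h, the next held SB+gp120 and SB+LPS at 24 h with control and gp120 at 4 h, and the last held the remaining 4 h groups, which had received LPS, SB or both, or SB+gp120. Since whole groups lay on single slides, a fit with slide as a block had to assume no joint dependence on stimulus, SB and time. That fit cannot separate slide from such a dependence. A call kept or lost in it therefore does not show whether slides mattered. Of 10 monocyte markers, 9 were tested and all 9 were detected on more than 18 arrays (mean log2 8.47 to 13.98). The tested T-cell, epithelial, fibroblast and erythroid markers had means of 5.23 to 5.79, near background, while 3 tested B-cell markers had means of 5.3 to 7.72, the highest being CD79B. By the same count of arrays, the T-cell marker CD2 was detected on 20, and the B-cell markers CD79A and CD79B on 31 and 34. All values below are log2 intensities after background correction and quantile normalisation, differences are of group means on that scale, and a gene was called at a Benjamini-Hochberg adjusted p under 0.05 over all genes in limma. In bulk RNA, fewer cells of a type and less RNA per cell cannot be told apart.

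**Figure D1:**
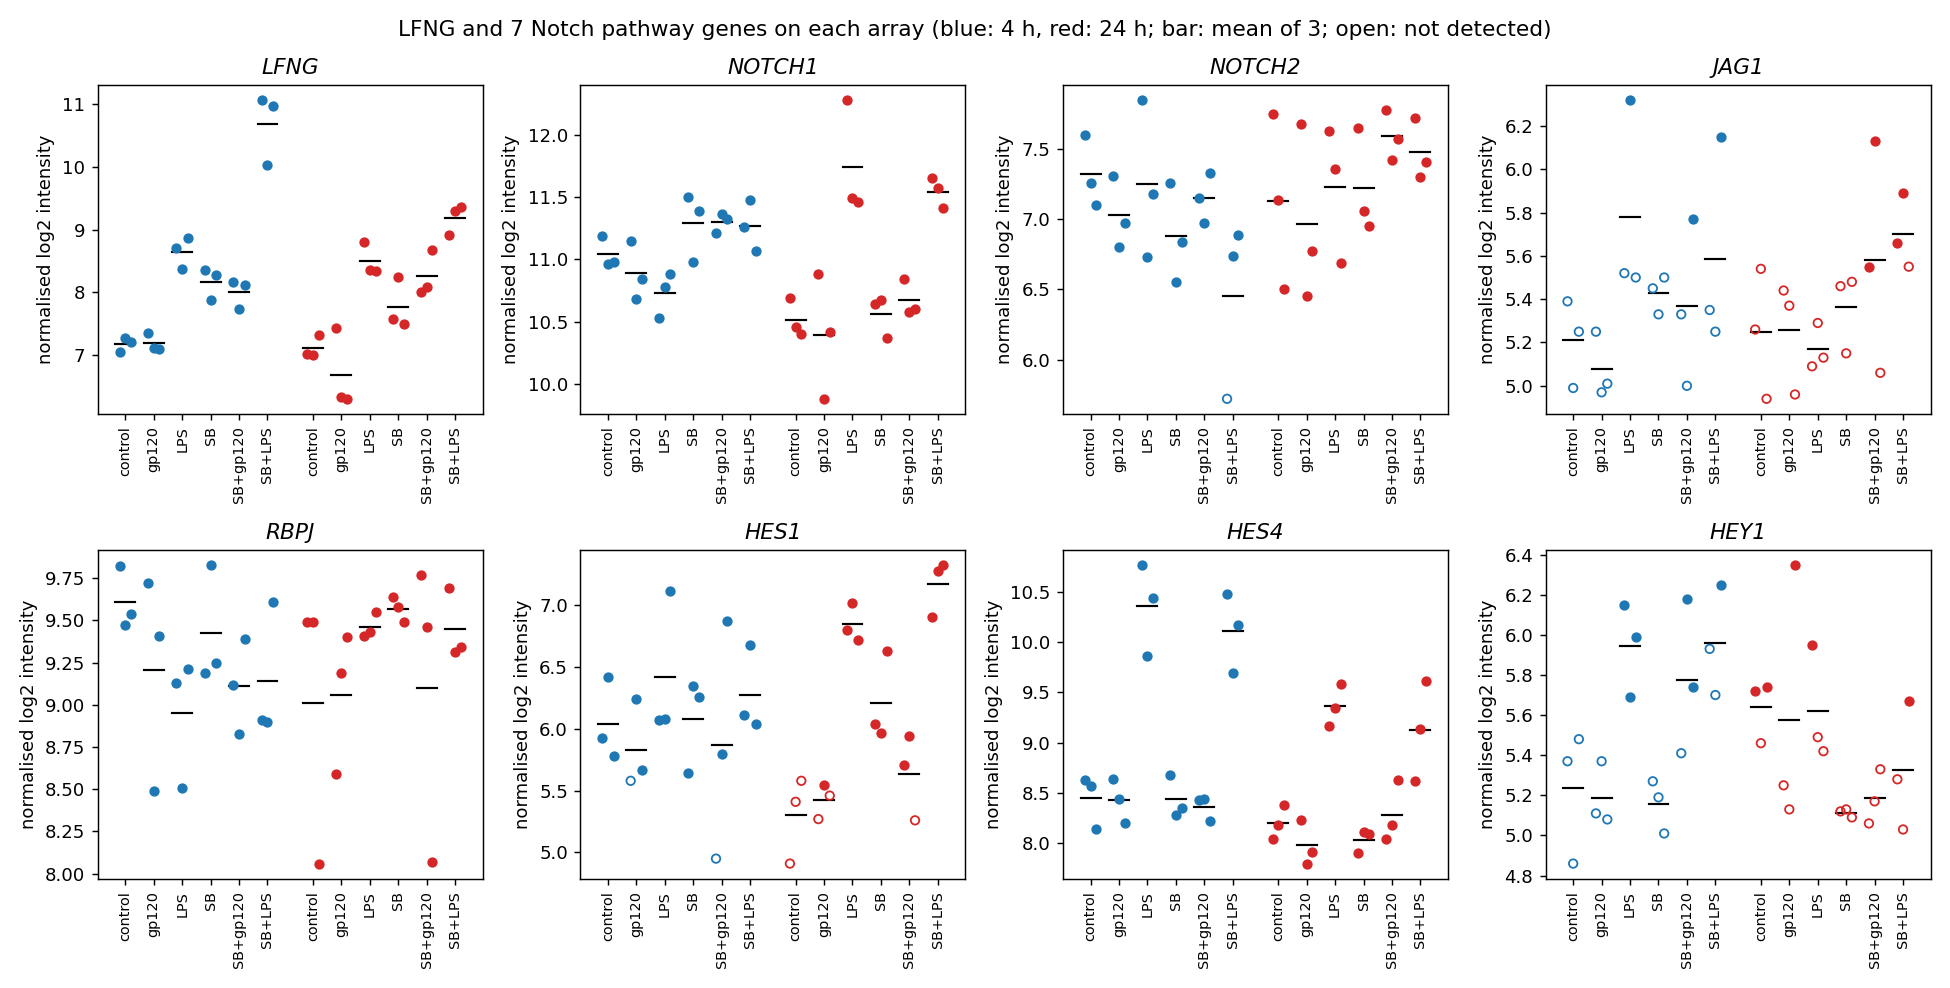
Normalised log2 intensity (y axis) of the 8 genes on each of 36 arrays, by group (x axis), 4 h in blue and 24 h in red, with a bar at the mean of 3 and open points where the probe was not detected. LFNG reaches its highest values, 10.03 to 11.06, in SB+LPS at 4 h, and HES4 stands highest in the LPS-treated groups of each time.

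LFNG (gene ID 3955, chr7:2512529-2529177, GRCh38.p14) was detected on all 36 arrays and had the widest range of group means among the 8 genes, 4 log2 units or 16-fold. It read 11.06, 10.03 and 10.96 on the SB+LPS arrays at 4 h, and 8.71, 8.37 and 8.87 on the LPS arrays. The SB arrays at 4 h read 8.36, 7.88 and 8.27, and the control arrays 7.05, 7.27 and 7.21. These 4 groups did not overlap, although the lowest LPS array (8.37) stood just above the highest SB array (8.36). SB+LPS stood 2.03 above LPS (SE 0.27) and 2.51 above SB (SE 0.27), and LPS stood 1.48 above control (SE 0.27). Without the 2 dimmest arrays these differences were 1.87, 2.32 and 1.45. LPS against control crosses slides and was 3.57 with slide as a block, while both SB+LPS comparisons lie within 1 slide. The LPS difference with SB minus that without SB at 4 h was 1.04 (SE 0.382), and 0.88 without the 2 dimmest arrays. With slide as a block it was -1.06, but that fit took this difference to be equal at both times. The -1.06 is therefore not specific to 4 h. On the raw scale LPS at 4 h did overlap control, with intensities of 232.6, 370.1 and 467.3 against 258.5, 280.9 and 283.3, and the mean array signal was 686 in LPS and 1080 in control. Scaling the arrays to equal medians instead gave 1.69 for SB+LPS against LPS and 0.66 for LPS against control, where the median of all genes moved to -0.71.

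At 24 h, arrays outside the difference that LFNG was selected on could be tested, although the members were chosen with earlier results of these data known. LPS arrays read 8.8, 8.36 and 8.34, against 7.02, 7.0 and 7.32 in control. LFNG rose by 1.38 (SE 0.27, adjusted p = 0.000463 in limma), with no overlap, and these groups shared a slide. SB+LPS arrays read 8.91, 9.29 and 9.36 and SB arrays 7.58, 8.25 and 7.5. The difference of 1.41 passed (SE 0.27, adjusted p = 0.000891), but it crosses slides and was 0.33 (adjusted p = 0.947) with slide as a block. SB+LPS exceeded LPS at 24 h by 0.69 without overlap (95% interval 0.14 to 1.24), which did not pass (adjusted p = 0.322). With equal medians, where the median of all genes moved to 0.53, that difference was 1.32 and passed (adjusted p = 0.0298). With slide as a block it was -0.4 (adjusted p = 0.999). The LPS-by-SB interaction at 24 h was 0.03 (95% interval -0.76 to 0.81).

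LFNG was also higher with the inhibitor alone or with gp120 in each such comparison. SB+gp120 at 24 h read 8.01, 8.09 and 8.67 and gp120 read 7.43, 6.34 and 6.31, which do not overlap. The rise of 1.56 (SE 0.27) passed the test (adjusted p = 0.000957 in limma). It lost the call when only those 2 groups entered the fit (adjusted p = 0.092), and with slide as a block it was 0.48 (adjusted p = 1). SB minus control was 1.00 at 4 h (adjusted p = 0.229) and 0.66 at 24 h (adjusted p = 0.386), and SB+gp120 minus gp120 at 4 h was 0.82 (adjusted p = 0.28). None of these passed, although none of the groups overlapped. Both 4 h comparisons cross slides, and with slide as a block they were called, at 3.09 (adjusted p = 0.0333) and 2.91 (adjusted p = 0.00192). These block values rest on the untested assumption that SB changes each response alike at both times. gp120 against control was 0.02 at 4 h (95% interval -0.54 to 0.57) and -0.42 at 24 h (95% interval -0.97 to 0.13).

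Ordered by mean, LFNG ran from SB+LPS at 4 h (10.69) through SB+LPS at 24 h (9.19) to LPS at 4 h (8.65), and these 3 groups did not overlap. LPS at 24 h (8.5), SB+gp120 at 24 h (8.26), SB at 4 h (8.17), SB+gp120 at 4 h (8.01) and SB at 24 h (7.78) followed, and each of these overlapped the group above it. A gap of 0.59 separated SB at 24 h from gp120 at 4 h (7.19), control at 4 h (7.18), control at 24 h (7.11) and gp120 at 24 h (6.69), which overlapped one another in turn. Thus the 24 arrays that had received SB or LPS read 7.5 to 11.06, and the 12 that had received neither read 6.31 to 7.43. With equal medians the 2 sets overlapped, at 7.28 to 10.37 and 6.11 to 7.61.

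The values above come from 1 LFNG probe, annotated to the transcript record NM_001040167. The other LFNG probes, both annotated to NM_001040168, were detected on 7 and 4 arrays, and their group means lay between 4.93 and 5.62. Their SB+LPS minus LPS differences at 4 h were 0.11 and -0.35, and their LPS minus control differences at 24 h were 0.26 and -0.22. The pattern of LFNG was thus seen on 1 of its 3 detected probes, the other 2 being near background in all groups. With the mean of the gene's probes, SB+LPS against SB at 24 h was 0.49 and was not called (adjusted p = 0.0687).

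Group means of 5 genes followed those of LFNG most closely over the 12 groups. They were PLAU (urokinase; Pearson r = 0.966), IL27RA (an interleukin receptor subunit; 0.966), CSRNP1 (0.962), SLC25A25 (a mitochondrial carrier; 0.956) and CMTM3 (0.943). These are descriptions over 12 means that share arrays and slides. PLAU had a mean of 11.26 in SB+LPS, 10.19 in LPS, 9.73 in SB and 9.4 in control at 4 h. IL27RA had 10.67, 9.7, 8.82 and 8.14 in the same groups. Both were highest in SB+LPS as LFNG was, but they were picked on these means, so this is not a separate result. Among the other 7 members the closest was HES4 (r = 0.775).

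**Figure D2:**
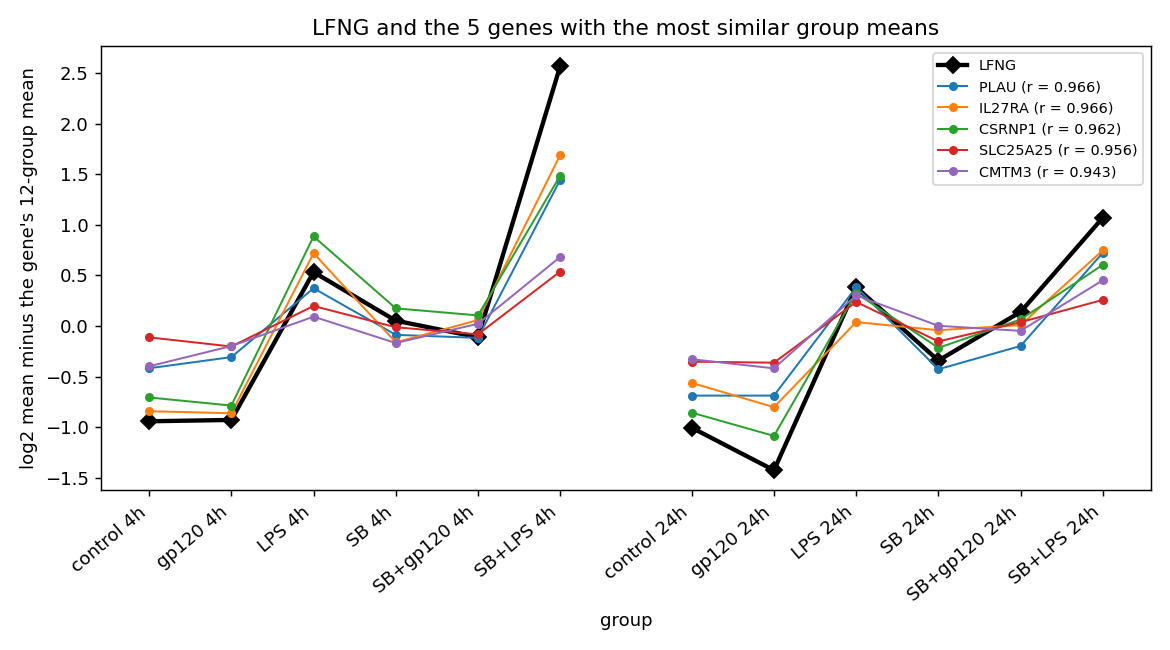
Group means of LFNG and of the 5 genes most correlated with it, each minus the gene's own mean over 12 groups (y axis, log2), by group (x axis), with lines joining the groups of a time for the eye. LFNG and all 5 genes peak in SB+LPS at 4 h, and r with LFNG runs from 0.943 to 0.966. The 5 genes were picked on these means, so the shared peak is not a separate result.

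Of the receptors, NOTCH1 (chr9:136494433-136546048) was detected on every array and rose with LPS at 24 h. LPS arrays at 24 h read 12.28, 11.49 and 11.46, and control arrays 10.69, 10.46 and 10.4, with no overlap. The rise was 1.23 (SE 0.21, adjusted p = 8.05e-05 in limma) within 1 slide, and with equal medians it was 1.2 and missed the threshold (adjusted p = 0.0588). With the inhibitor, SB+LPS read 11.65, 11.57 and 11.41 and SB read 10.64, 10.67 and 10.37. That difference was 0.98 (SE 0.21, adjusted p = 0.00289). It was not called with slide as a block (0.91, adjusted p = 0.7) or with equal medians (1.25, adjusted p = 0.0527). At 4 h NOTCH1 read 10.53, 10.78 and 10.88 with LPS against 11.19, 10.96 and 10.98 in control, a difference of -0.31 without overlap (adjusted p = 0.282), or -0.21 without the 2 dimmest arrays. With equal medians, where the median of all genes was -0.71, it was -1.24 and was called (adjusted p = 0.0092).

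The LPS effect on NOTCH1 differed between the times. It was 1.54 greater at 24 h than at 4 h (SE 0.297, adjusted p = 0.000712), and 1.44 greater without the 2 dimmest arrays (adjusted p = 0.00369). NOTCH1 was the 1 member called of the 7 tested, where 12.2% of all genes were called. With slide as a block the difference was 0.93 (adjusted p = 0.362), but that fit cannot separate slide from a joint dependence on stimulus, SB and time.

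NOTCH2 (chr1:119911553-120069662) was called in none of the 12 comparisons of groups. It was detected on 35 arrays, its group means ran from 6.45 to 7.59, and its differences from -0.8 to 0.63. The lowest mean, in SB+LPS at 4 h, came from 5.72, 6.74 and 6.89, and the 5.72 was its undetected value, on the dimmest array. SB+LPS minus LPS at 4 h was -0.8 (adjusted p = 0.231), and -0.14 without the 2 dimmest arrays. Human NOTCH2 has near-identical partial copies, the NOTCH2NL genes, so its probe cannot be assigned to 1 gene with certainty.

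JAG1 (chr20:10637684-10673999), a ligand, was near background, with detection on 7 of 36 arrays and group means between 5.08 and 5.78. Its highest single value was 6.32, on 1 LPS array at 4 h, whose other replicates read 5.52 and 5.5. No difference passed, the widest being 0.57 for LPS against control at 4 h (adjusted p = 0.0952), or 0.7 without the 2 dimmest arrays (adjusted p = 0.0884).

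RBPJ (chr4:26105449-26435131) was detected on all arrays at group means of 8.95 to 9.61, a span of 0.66 and the narrowest of the 8. At 4 h it read 9.13, 8.51 and 9.21 with LPS and 9.82, 9.47 and 9.54 in control, a difference of -0.66 without overlap that did not pass (adjusted p = 0.185), nor did -0.75 without the 2 dimmest arrays (adjusted p = 0.234). With equal medians it was -1.52 and was called (adjusted p = 0.021), and it was also called with the mean of its probes. Single arrays stood low in control (8.06) and SB+gp120 (8.07) at 24 h. RBPJ also has processed copies elsewhere in the genome, and the probe was not checked against them. A second RBPJ probe, detected on 29 arrays but on no LPS array at 4 h, gave -0.86 for LPS against control at 4 h.

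Of the target genes, all 3 encode basic helix-loop-helix repressors. HES4 (chr1:998964-1000097) rose with LPS at both times, with and without the inhibitor. At 4 h it read 10.77, 9.86 and 10.44 with LPS and 10.48, 9.69 and 10.17 with SB+LPS. Control arrays read 8.63, 8.57 and 8.14 and SB arrays 8.68, 8.28 and 8.35, all below. LPS against control was 1.91, or 3.76-fold (SE 0.235, adjusted p = 3.97e-07 in limma), and 1.7 without the 2 dimmest arrays (adjusted p = 8.63e-06). SB+LPS against SB was 1.68, or 3.2-fold (SE 0.235, adjusted p = 5.09e-06), and 1.5 without them (adjusted p = 7.73e-05).

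At 24 h HES4 read 9.17, 9.35 and 9.58 with LPS against 8.04, 8.18 and 8.38 in control, a rise of 1.17 (SE 0.235, adjusted p = 0.000658). SB+LPS read 8.62, 9.14 and 9.61 against 7.9, 8.11 and 8.09 with SB, a rise of 1.09 (adjusted p = 0.0031). With slide as a block the latter was 0.57 (adjusted p = 0.876), whereas LPS against control at 4 h was still called. The inhibitor added no called difference to LPS: SB+LPS minus LPS was -0.24 at 4 h (95% interval -0.72 to 0.24) and -0.24 at 24 h (95% interval -0.73 to 0.24).

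HES1 (chr3:194136148-194138732) was low, with 28 arrays detected, and rose with LPS at 24 h. LPS arrays read 6.8, 7.02 and 6.72, and control arrays 4.91, 5.41 and 5.58, of which none was above background. The rise was at least 2.28-fold, the LPS mean being set against the lowest detected signal on each control array (fitted difference 1.54, SE 0.335, adjusted p = 0.00153). SB arrays at 24 h read 6.04, 5.97 and 6.63, all detected and all above control, but SB against control, at least 1.47-fold, did not pass (fitted difference 0.91, adjusted p = 0.283). SB+LPS read 6.91, 7.28 and 7.33, which was 0.96 above SB without overlap (adjusted p = 0.102). That result passed with the replicate number as a block (adjusted p = 0.0421), and replicate numbers met the pairing criterion in this comparison. It also passed with equal medians (1.25, adjusted p = 0.0189) and with only both groups in the fit (adjusted p = 0.0164), but not with slide as a block (adjusted p = 0.585). At 4 h LPS minus control was 0.38 (adjusted p = 0.436), with overlap, or 0.55 without the 2 dimmest arrays (adjusted p = 0.352).

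HEY1 was detected on 11 arrays. At 4 h its LPS arrays read 6.15, 5.69 and 5.99, and its control arrays 5.37, 4.86 and 5.48, all 3 undetected. It was called in LPS against control, at least 1.31-fold (fitted difference 0.71, adjusted p = 0.0309), and in SB+LPS against SB (fitted difference 0.81, adjusted p = 0.0227). SB+LPS read 5.93, 5.7 and 6.25, of which 1 array of 3 was detected, and no SB array was, so no fold is given there. Neither call held without the 2 dimmest arrays (0.6 and 0.82, adjusted p = 0.142 and 0.0561) or with equal medians (adjusted p = 0.0613 and 0.0511). With slide as a block the LPS against control difference was 0.04. Raw intensities were 120.1, 132.3 and 146.5 with LPS and 138.4, 112.1 and 146.2 in control, and thus overlapped. A second HEY1 probe, detected on 8 arrays, gave differences of 1.66 and 1.75 in the same comparisons. The probes disagreed in SB+LPS against SB at 24 h, at 1.49 on this probe, detected on all 3 SB+LPS arrays, and 0.22 on the probe used.

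Counted over the members, LPS at 4 h raised 2 of the 7 tested (HES4 and HEY1), where 26.7% of all genes were called, and SB+LPS against SB at 4 h raised the same 2 genes, where 15.6% were called. With equal medians LPS at 4 h instead gave 1 higher (HES4) and 2 lower (NOTCH1 and RBPJ). LPS at 24 h raised 4 of 8 (NOTCH1, LFNG, HES1 and HES4) against 11.9% of all genes, and SB+LPS against SB at 24 h raised 3 of 8 (NOTCH1, LFNG and HES4) against 5.23%. SB+gp120 against gp120 at 24 h raised 1 of 8 (LFNG), where 4.64% of genes were called. The median difference of the 8 genes in LPS against control was 0.47 at 4 h and 0.81 at 24 h, against -0.09 and -0.06 over all genes. The 4 h median includes LFNG, which was selected on arrays of that comparison, so it is a description only. With equal medians the median of all genes at 4 h moved to -0.71.

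No member passed in limma in the other comparisons. For SB against control the share of all genes called was 0.14% at 4 h and 0.913% at 24 h, and 1 and 3 members had an unadjusted p under 0.05. For SB+LPS against LPS it was 2.16% at 4 h and 1.03% at 24 h, with 2 of 7 and 2 of 8 members under 0.05 unadjusted. SB+gp120 against gp120 at 4 h had 0.184% called, with 2 members under 0.05 unadjusted. gp120 against control had 0% called at either time, with 261 genes at 4 h and 405 at 24 h under 0.05 unadjusted and no member among them. The LPS-by-SB interaction had 0.14% called at 4 h and 0.133% at 24 h. None of the 7 members tested at 4 h, where LFNG was left out, or of the 8 at 24 h was under 0.05 unadjusted. Member differences for gp120 lay between -0.42 and 0.12 over both times.

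**Figure D3:**
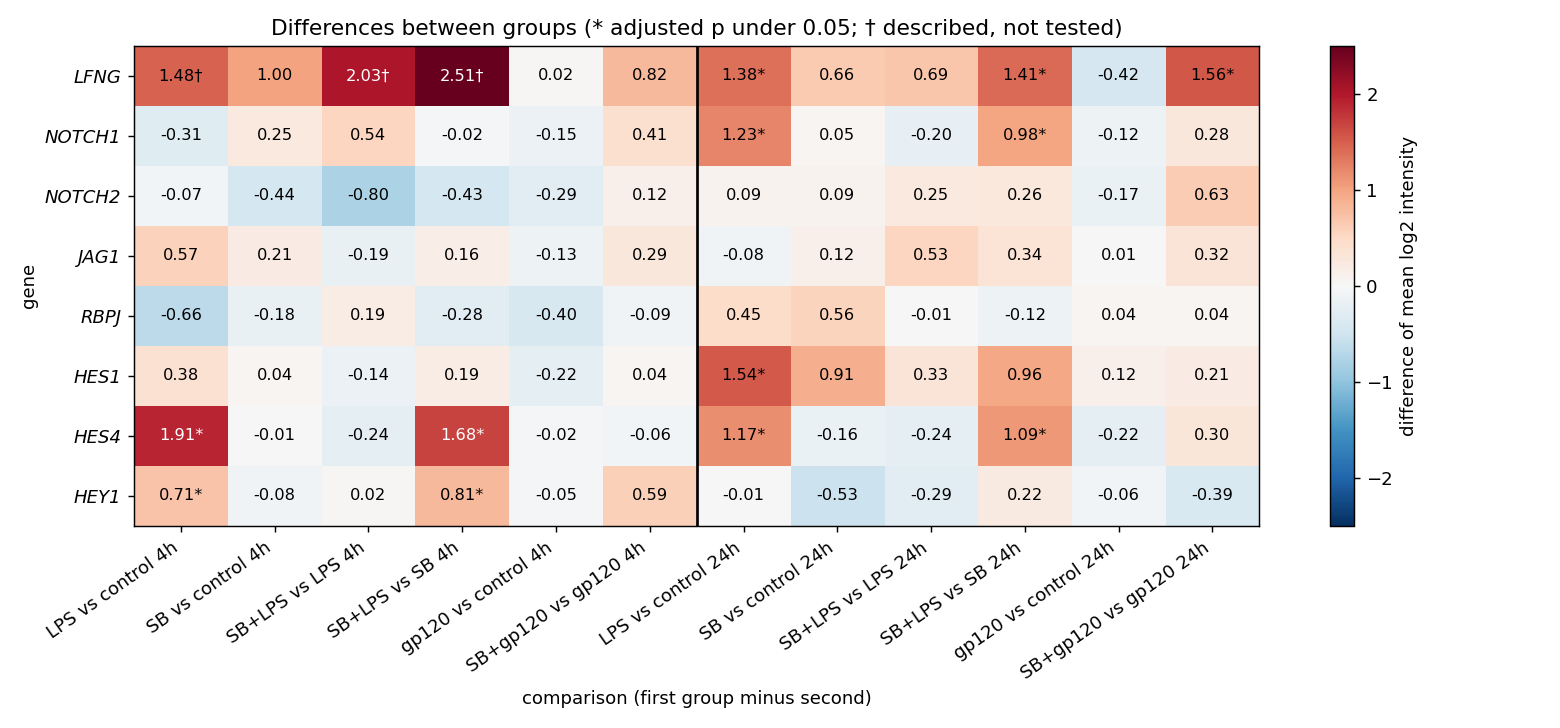
Differences of mean log2 intensity (colour and printed value) for the 8 genes (rows) in 12 comparisons (columns, first group minus second), 4 h left of the line and 24 h right of it, with an asterisk at an adjusted p under 0.05 and a dagger where LFNG was described and not tested. All differences with an asterisk are positive, and the columns of gp120 against control hold none.

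The rest of the pathway was read from a list of 59 further genes, of which 43 were tested. NOTCH3, NOTCH4 and MFNG were on the array and did not pass the detection filter. LPS at 4 h raised 7 and lowered 9 of the 43 (37.2%), where 26.7% of all genes were called. The largest was MAML2, a Mastermind coactivator, which read 7.3, 7.47 and 7.34 with LPS and 5.26, 5.07 and 5.08 in control, none of the latter detected. It rose at least 3.53-fold (fitted difference 2.24, adjusted p = 3.35e-10) and was called with slide as a block too (2.03, adjusted p = 0.00123). The clathrin-adaptor kinase AAK1 fell by 1.94 (adjusted p = 0.000279), HES6, a relative of HES1, fell by 1.65 (adjusted p = 5.25e-05), and the ligand DLL1 fell by 1.52 (adjusted p = 0.000543). Those 3 falls were not called with slide as a block. Without the 2 dimmest arrays the 4 differences were 2.27, -1.75, -1.29 and -1.18, and all were called. With equal medians the count was 2 higher and 26 lower, and the median of all genes shifted with it.

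SB+LPS against SB at 4 h raised 5 and lowered 8 of the 43 (30.2%), where 15.6% of all genes were called, and these groups shared a slide. MAML2 rose at least 3.52-fold (fitted difference 2.41, adjusted p = 8.25e-11). The acetyltransferase gene EP300 fell by 2.26 (adjusted p = 0.00154), AAK1 by 1.96 (adjusted p = 0.000424) and DLL1 by 1.5 (adjusted p = 0.00104). Without the 2 dimmest arrays these were 2.15, -1.88, -1.79 and -1.07, and all were called. With equal medians 1 was higher and 23 lower. SB+LPS against LPS at 4 h lowered 2 (4.65%, against 2.16% of all genes), the acetyltransferase CREBBP by 0.7 (adjusted p = 0.019) and the corepressor TLE1 by 0.62 (adjusted p = 0.048), and neither passed with equal medians. Without the 2 dimmest arrays TLE1 lost its call (-0.46, adjusted p = 0.335) and CREBBP kept it (-0.86, adjusted p = 0.0385).

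At 24 h, LPS raised 3 and lowered 4 of the 43 (16.3%), near the 11.9% called over all genes. The ubiquitin ligase gene DTX3L read 9.12, 9.29 and 8.94 with LPS and 7.61, 7.49 and 7.29 in control, a rise of 1.65 (adjusted p = 7.46e-05). The ligand DLL4 rose at least 1.69-fold, from no detected control array (fitted difference 1.39, adjusted p = 0.0021). HES6 fell by 1.31 (adjusted p = 0.00131) and HEYL, a relative of HEY1, by 1.1 (adjusted p = 4.6e-06). HEYL read 9.84, 10.24 and 10.28 with LPS against 11.27, 11.08 and 11.3. HES6 and HEYL thus fell while HES1 and HES4 rose. HEY1 did neither on the probe used (-0.01, adjusted p = 0.984 in limma), and the target NRARP (-0.1) was not called. With equal medians the counts were 3 higher and 1 lower, and HES6 missed the threshold (adjusted p = 0.0571).

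SB+LPS against SB at 24 h, which crosses slides, raised 4 and lowered 3 (16.3%), where 5.23% of all genes were called, and with equal medians 3 were higher and none was lower. DLL1 fell by 1.35 (adjusted p = 0.00608) and HES6 by 0.95 (adjusted p = 0.0398), DLL4 rose at least 1.51-fold (adjusted p = 0.027) and MAML2 at least 1.84-fold (adjusted p = 0.000227). None of these 4 was called with slide as a block. The interaction of LPS with time called 1 higher and 2 lower (6.98%, against 12.2% of all genes). In the other comparisons no gene of the 43 passed in the main limma fit, with between 0 and 9 under 0.05 unadjusted.

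**Figure D4:**
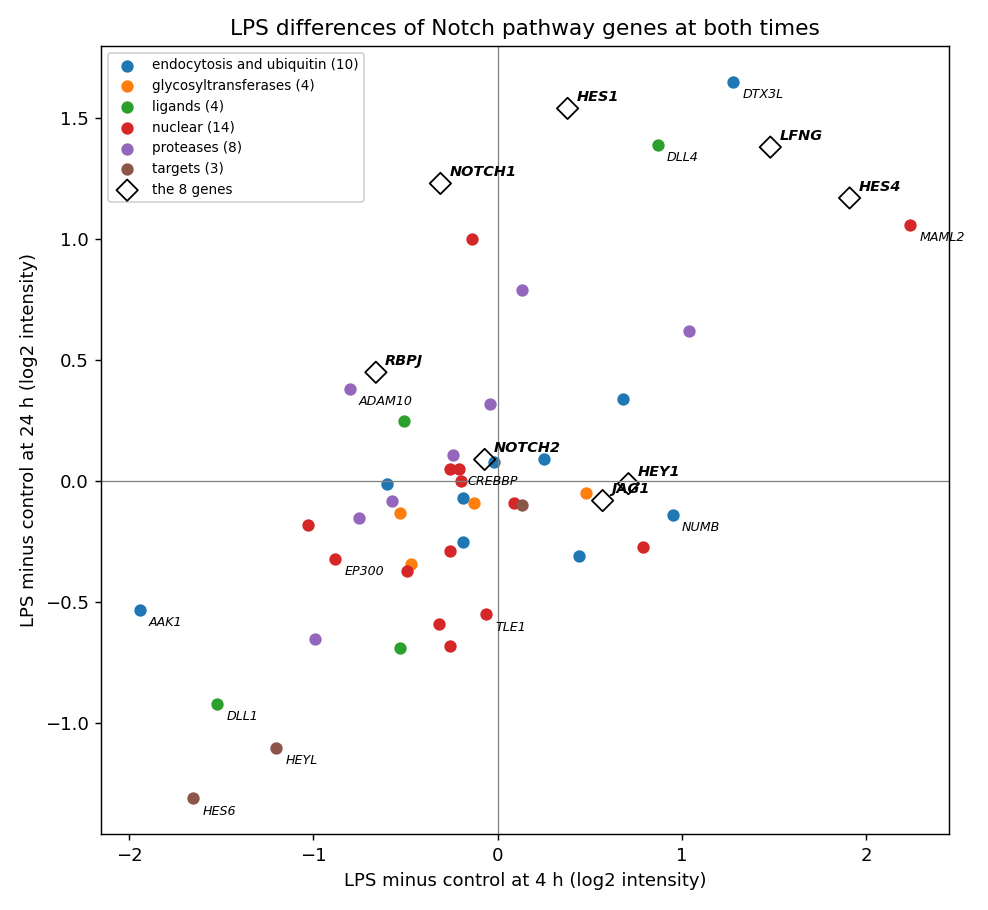
LPS minus control (log2) at 4 h (x axis) and 24 h (y axis) for 43 further Notch pathway genes, coloured by role with the number tested, and for the 8 genes as open diamonds. HES4, LFNG, MAML2 and DTX3L lie above 0 at both times, HES6, HEYL and DLL1 below 0 at both, and NOTCH1 lies near -0.31 at 4 h and 1.23 at 24 h.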

How the data were processed

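RNA of 36 samples was hybridised to Illumina HumanHT-12 v4 arrays. Per the file headers, the deposited table holds, per probe and array, the mean intensity over beads and a p-value for detection, with bead numbers and bead standard errors as other columns. The submitters' text names GeneSpring GX. No source used here states a genome build for the array. A value table that the authors deposited is on a log2 scale, and it matched the log2 of quantile-normalised intensity to within 0.0986, each of its 36 columns correlating best with its own raw column. Column medians were 7.01 to 7.02, so arrays were scaled alike; it was used as an alternative.

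Intensities were corrected and quantile-normalised by neqc (limma 3.58.1, R 4.3.3, offset 16, background from the detection p). Probes with a detection p under 0.05 on at least 3 arrays were kept (26473), symbols came from the platform annotation updated by gene ID (30112 probes with 1 symbol, 8 with several, 17102 with none), and each gene took its brightest probe on average. The 36 arrays entered 1 limma fit with a coefficient for each group, from which 15 two-sided comparisons were taken. For a gene undetected in a group, the fold is a lower limit against each array's lowest detected signal. The number of arrays limits the precision.

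The members and lists were chosen with earlier results of these data known. All 8 members were named in each comparison, with up to 4 called pathway genes of largest difference and the 5 genes most correlated with LFNG. MFNG, NOTCH3 and NOTCH4 were named as unmeasured. The markers CD2, CD79A and CD79B, and the target NRARP, were named after their values were seen. The limma fit was tested on simulated data. Replicate numbers were checked for pairing by the correlation of deviations from group means: all 6 comparisons at 4 h passed 0.1 (0.123 to 0.696), and 1 of 6 at 24 h (0.00547 to 0.355).

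Alternatives were no background correction, equal medians, the authors' values, other detection filters, other probes or their mean, replicate and slide blocks, a variance trend, only the compared groups, and each array left out.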

Additional observations from a re-analysis of the deposited data

Results flagged for a closer look

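The LPS effect differed between the 2 times in 4 genes, by the test of the difference itself (effect at 24 h minus that at 4 h, limma). They were 1 of 7 members and 3 of 43 other pathway genes (6.98%), against 12.2% of all genes. NOTCH1 differed by 1.54 (SE 0.297, adjusted p = 0.000712). ADAM10, a protease that cleaves the receptor, differed by 1.18 (adjusted p = 0.0276). ADAM10 read 9.56, 9.23 and 9.82 with LPS at 4 h against 10.48, 10.25 and 10.3 in control, and 10.41, 10.46 and 10.36 against 10.14, 10.24 and 9.72 at 24 h. MAML2 differed by -1.18 (adjusted p = 0.00398), with a larger LPS effect at 4 h. NUMB, an inhibitor of Notch, differed by -1.08 (adjusted p = 0.00151). NUMB read 13.12, 12.92 and 13.35 with LPS at 4 h against 12.05, 12.38 and 12.12 in control, and 12.21, 12.29 and 12.1 against 12.23, 12.45 and 12.33 at 24 h. Without the 2 dimmest arrays ADAM10 lost its call (1.19, adjusted p = 0.0501), while NOTCH1 (1.44, adjusted p = 0.00369), MAML2 (-1.21, adjusted p = 0.00227) and NUMB (-1.09, adjusted p = 0.00423) were called. With equal medians NUMB (-0.41, adjusted p = 0.48) and MAML2 (-0.86, adjusted p = 0.0642) were not called, and ADAM10 was 2.04 (adjusted p = 0.0232). With slide as a block none of the 4 was called (adjusted p = 0.362 for NOTCH1, 0.81 for ADAM10, 0.283 for MAML2 and 0.159 for NUMB). Control and LPS at 4 h lay on different slides, and that fit cannot separate slide from a joint dependence on stimulus, SB and time. It also had wider errors across slides, with an SE for NOTCH1 in LPS against control at 4 h of 0.42 against 0.21.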

How the results depend on the processing

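Signals near background, 3 arrays a group and the layout of groups on slides limit these results, and the cause of each shift below was not tested. Counts of called members that moved by over 1.5 times are given first. With slide as a block the counts became 1 for LPS against control at 4 h, 1 for SB against control at 4 h, 1 for SB+gp120 against gp120 at 4 h, 0 for SB+LPS against SB at 24 h, 0 for SB+gp120 against gp120 at 24 h and 0 for LPS by time. With equal medians they became 1 for SB+LPS against SB at 4 h and 1 for SB+LPS against LPS at 24 h. With only the groups compared they became 1 for LPS against control at 4 h, 1 for SB+LPS against SB at 4 h and 0 for SB+gp120 against gp120 at 24 h. That setting also raised SB+LPS against SB at 24 h from 3 to 4 by calling HES1 (adjusted p = 0.0164), and equal medians kept 3 there with HES1 in place of NOTCH1. Without the 2 dimmest arrays, an alternative chosen after seeing the data, they became 1 for LPS against control at 4 h and 1 for SB+LPS against SB at 4 h. For LPS by time the mean of a gene's probes gave 2 (NOTCH1 and RBPJ). The replicate block within each time gave 3 there (NOTCH1, HES1 and, as a smaller effect at 24 h, HES4). The replicate block called HES1 in SB+LPS against SB at 24 h, which raised the count from 3 to 4 (adjusted p = 0.0421, or 0.0354 within each time), and neither block changed another call of a member. Leaving out each array in turn gave 1 to 2 for LPS against control at 4 h, for SB+LPS against SB at 4 h and for LPS by time. The HEY1 difference in LPS against control lost its call without control replicate 2, LPS replicate 1 or LPS replicate 3 (0.52 to 0.69), and in SB+LPS against SB without SB replicate 2 or 3 or SB+LPS replicate 1 or 3 (0.66 to 0.82). On the LFNG probe detected on 4 arrays the differences were below 0, at -0.35 for SB+LPS against LPS at 4 h, -0.27 for SB+LPS against SB at 4 h, -0.22 for LPS against control at 24 h and -0.39 for SB+LPS against SB at 24 h. That probe was detected on no LPS or SB+LPS array and on at most 1 array of each group they were set against, so the sign is not informative. Counts over the 43 pathway genes differed too: with slide as a block LPS against control at 4 h called 1 higher and 1 lower. With the replicate block within each time, SB+LPS against SB at 4 h called 5 higher and 13 lower, where 3276 of 13582 genes were called. In that setting SB+LPS against LPS at 4 h called 1 higher and 4 lower (953 of all genes). SB against control at 4 h called 1 higher (59 of all genes).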

Other observations

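DLL1, a Delta ligand, stood higher at 24 h than at 4 h in all 6 treatments of the series. Control arrays read 7.65, 8.28 and 8.23 at 4 h and 9.48, 10.34 and 10.05 at 24 h. The 2 times of each treatment lay on different slides. On the 1 slide that held both times, control and gp120 at 4 h had means of 8.05 and 8.03, and SB+gp120 and SB+LPS at 24 h had 10.64 and 9.16, groups that differ in treatment as well. No test of the difference was made.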
